A study of Homo sapiens with 3 samples.

Results

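The CXCR3 ligand genes CXCL9, CXCL10 and CXCL11 and the receptor gene CXCR3 were taken by symbol, and all 4 were found among the 19215 genes of the authors' deposited table. Transcript levels had been measured by RNA sequencing in C28/I2, an immortalised line derived from human chondrocytes, the cells of cartilage. All 3 samples were labelled as spheroid culture, that is, cells grown as aggregates, and each had been in 0.5% DMSO, a common drug solvent, for 48 h. Cells grown as a monolayer enter only through the authors' deposited fold changes, and how they were treated is unknown here. Whether the samples were separate cultures is not stated, so their spread may be technical. The genes were chosen by their fold changes in these data as well as by function.

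CXCL9, CXCL10 and CXCL11 are small secreted chemokines that attract activated T cells and natural killer cells through CXCR3, a G protein-coupled receptor. Their genes lie side by side on chromosome 4 and are known as interferon-induced genes. CXCL9 is known mainly as a target of interferon gamma, whereas CXCL10 and CXCL11 also respond to type I interferons, and NF-kB takes part in the induction of CXCL10. CXCR3 lies on the X chromosome and is expressed mostly on lymphocytes.

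The sequences before the ligand genes' start sites are shown because interferon and NF-kB signals act on the ligands through promoter DNA. Each run is the 250 bases upstream of the start, on the gene's strand, 5′ to 3′, from RefSeq (GRCh38.p14). The start sites are on the minus strand, and the runs cover chr4:76023498-76023747 for CXCL10, chr4:76036071-76036320 for CXCL11 and chr4:76007510-76007759 for CXCL9. Capitals mark matches, on either strand, to the interferon-stimulated response element (ISRE; GAAA, any 2 bases and GAAA), the STAT site TTCNNNGAA, the kB consensus, the AP-1 site TGANTCA or the TATA box TATAAA.
CXCL10: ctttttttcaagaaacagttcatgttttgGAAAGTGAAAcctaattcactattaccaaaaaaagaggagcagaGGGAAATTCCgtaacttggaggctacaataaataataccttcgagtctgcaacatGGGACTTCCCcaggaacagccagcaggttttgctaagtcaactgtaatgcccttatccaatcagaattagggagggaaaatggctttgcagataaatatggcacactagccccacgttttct
CXCL11: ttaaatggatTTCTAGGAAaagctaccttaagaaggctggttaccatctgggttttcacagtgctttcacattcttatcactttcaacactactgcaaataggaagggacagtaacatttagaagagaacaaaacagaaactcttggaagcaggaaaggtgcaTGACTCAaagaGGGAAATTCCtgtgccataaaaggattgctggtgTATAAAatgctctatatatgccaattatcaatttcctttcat
CXCL9: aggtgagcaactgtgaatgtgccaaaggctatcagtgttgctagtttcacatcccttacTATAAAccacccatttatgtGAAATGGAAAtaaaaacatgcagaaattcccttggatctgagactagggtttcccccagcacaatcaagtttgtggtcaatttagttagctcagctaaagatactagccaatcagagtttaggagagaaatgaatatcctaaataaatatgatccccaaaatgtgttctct

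The CXCL10 run held the ISRE letters 221 bases upstream of the start and kB matches 177 and 122 bases upstream. In the CXCL11 run there was a kB match 76 bases upstream, an AP-1 match 87, a TATA box 42 and a STAT site 240 bases upstream, and no ISRE match. CXCL9 had the ISRE letters 171 bases upstream and a TATA box match 191 bases upstream, and no kB match. None of the 5 motifs was found in the same window of CXCR3. Of 27305 RefSeq promoters, 3.07% held the ISRE letters, 9.57% the kB consensus, 6.78% the STAT site, 6.60% the AP-1 site and 11.1% the TATA box. Of the 385 genes with the ISRE letters and a fold change, CXCL9 and CXCL10 among them, 93 passed as higher in spheroids and 29 as lower (authors' adjusted p under 0.05 and a log2 fold change, spheroid over monolayer, of 1 or more in size). This is 24.2% higher, against 11.1% of the 14288 such genes with any promoter in the RefSeq table. The share also lay above 11.1% for each of the other motifs. It was 17.6% for the TATA box, 17.1% for the AP-1 site, 13.9% for the kB consensus and 13.5% for the STAT site. The ISRE letters had the highest share of the 5 motifs, and the differences were not tested. A match describes letters and does not show that a factor binds there.

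The longest run common to CXCL10 and CXCL11 was the 13 bases AGAGGGAAATTCC, which spans a kB match in both. Its 10 letters GGGAAATTCC, chosen after the sequences had been read, occurred in 42 of the 27305 promoters (0.154%). Besides CXCL10 and CXCL11, 22 genes with these letters had a fold change in the authors' deposited table, of which 6 passed as higher in spheroids and none as lower. The 6 make 27.3%, against 11.5% higher and 9.34% lower among all tested genes. The letters came from CXCL10 and CXCL11, which were chosen with their fold changes known, and the difference was not tested. Their median log2 fold change was 0.69 in the authors' deposited table, against 0.04 over all 18467 genes with a fold change. Those that were higher were the neutrophil chemokine genes CXCL3 and CXCL5, WNT10A, the autophagy receptor gene OPTN, the antiviral gene OAS3 and the kinase gene MAP3K8. CXCL1, CXCL2, CXCL6 and the interferon beta gene IFNB1 carried the letters too and did not pass. These chemokine genes are related copies, so their promoters are not independent.

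CXCL10 was the most abundant of the 4 transcripts. It was listed at 127, 150 and 153 FPKM (fragments scaled to transcript length and library total) in spheroid replicates 1, 2 and 3, a mean of 143 ± 14.5 (SD, n = 3). Replicate 1 was the lowest and the other replicates lay close together. By mean level CXCL10 was 578th of the 19215 genes, above 97.0% of them.

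CXCL11 was listed at 47.0, 52.8 and 40.6 FPKM in spheroid replicates 1, 2 and 3, a mean of 46.8 ± 6.09 (SD, n = 3). Here replicate 2 was the highest and replicate 3 the lowest, so the libraries did not rank as they did for CXCL10. CXCL11 was 1867th of the 19215 genes by mean level. The FPKM of CXCL10, a value per length, was 2.70, 2.85 and 3.77 times that of CXCL11 in replicates 1, 2 and 3, and the ranges of the genes did not overlap.

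CXCL9 was listed at 0.17, 0.12 and 0.08 FPKM in spheroid replicates 1, 2 and 3, a mean of 0.123 ± 0.0451 (SD, n = 3). Its highest library was replicate 1, where CXCL10 was lowest. It made up 0.0977%, 0.0590% and 0.0412% of the summed FPKM of the 3 ligands in replicates 1, 2 and 3, while CXCL10 made up 72.9%, 74.0% and 79.0%. The summed ligand level itself was 174, 203 and 194 FPKM. With values given to 2 decimals and an unknown read total, the differences among the CXCL9 values cannot be set against counting error.

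The receptor gene CXCR3 was listed at 0, 0 and 0.06 FPKM in spheroid replicates 1, 2 and 3. A listed 0 does not show that the transcript was absent. The order of levels per length was CXCL10, CXCL11, CXCL9 and CXCR3, and no neighbours in this order overlapped over the 3 libraries. The narrowest gap was between the lowest CXCL9 value, 0.08 FPKM, and the highest CXCR3 value, 0.06 FPKM.

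**Figure D1:**
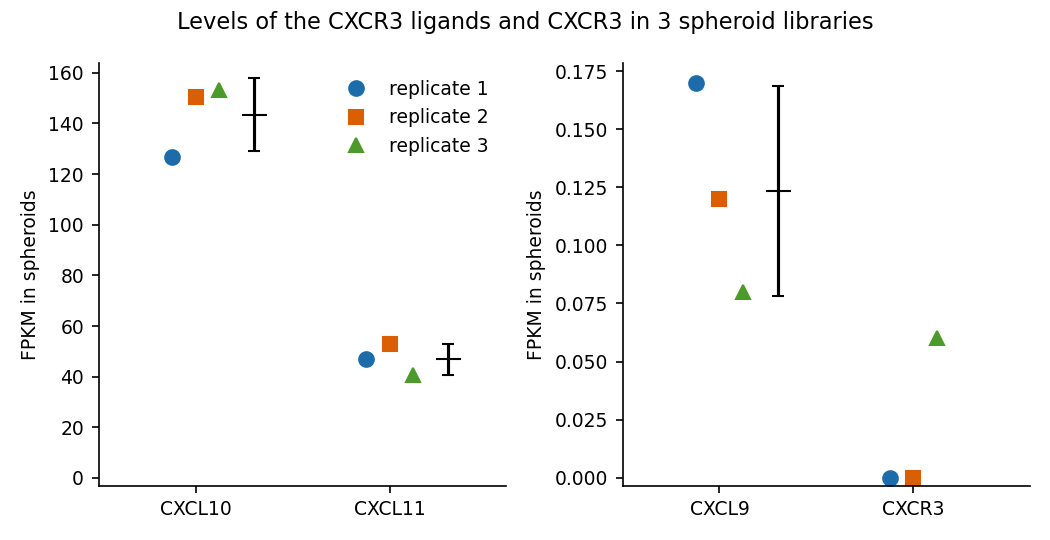
FPKM of CXCL10 and CXCL11 (left) and of CXCL9 and CXCR3 (right, on a smaller scale) in each of the 3 spheroid libraries, with the mean and SD as a bar for the ligands. CXCL10 lies between 127 and 153 FPKM and CXCL11 between 40.6 and 52.8 FPKM, whereas no CXCL9 value exceeds 0.17 FPKM and CXCR3 is at 0 in replicates 1 and 2.

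Across the CXC chemokine ligands, CXCL10 and CXCL11 stood at places 2 and 3 of 16 genes by mean spheroid FPKM, a level per length. Only CXCL8, which encodes the neutrophil attractant interleukin-8, was higher, at 277 ± 40.5 FPKM (SD, n = 3). Its lowest library, at 231 FPKM, lay above the highest CXCL10 library. The gene after CXCL11 was CXCL16, encoding a membrane-anchored chemokine, at 15.0 ± 1.33 FPKM (SD, n = 3), again without overlap. CXCL9 was 11th, and its range overlapped those of CXCL6, PPBP and CXCL1, among others. Of the 13 CXC ligand genes other than the CXCR3 ligands, 5 passed as higher in spheroids, 1 as lower and 7 did not pass, with a median log2 fold change of 2.20 by the authors' deposited table. For all tested genes the shares were 11.5% higher and 9.34% lower. PF4, whose product is known as a platelet-derived ligand of a CXCR3 splice form, was listed at 0 in the 3 libraries.

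**Figure D2:**
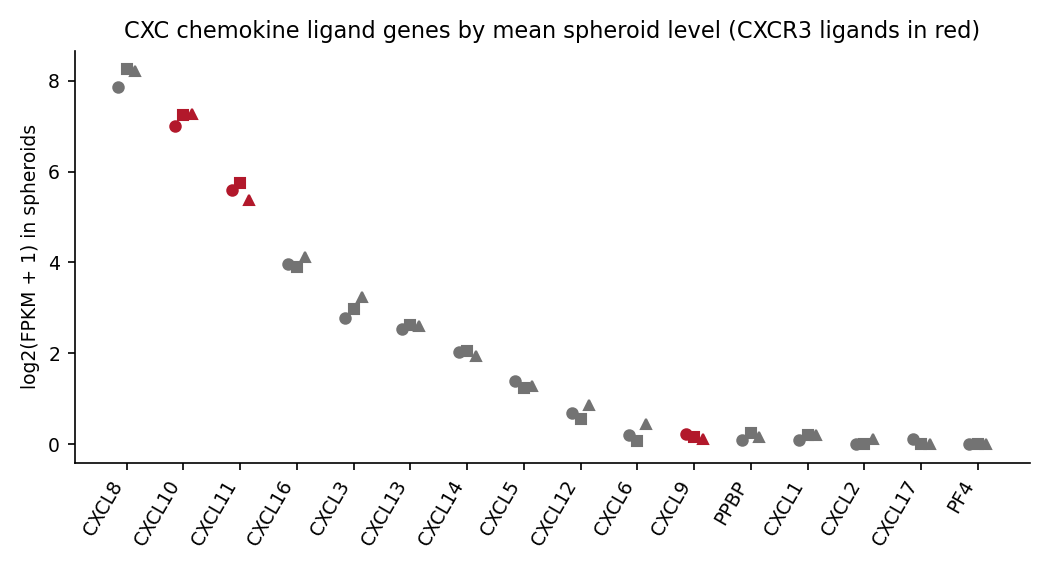
Levels of 16 CXC chemokine ligand genes as log2(FPKM + 1) in spheroid replicates 1 (circles), 2 (squares) and 3 (triangles), ordered by mean FPKM, with the CXCR3 ligands in red. CXCL10 and CXCL11 follow CXCL8, and CXCL9 lies among the genes near 0.

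The comparison of culture forms asks which transcripts differ between spheroid and monolayer growth. The authors' deposited table listed log2 fold changes of 7.28 for CXCL10 and 7.17 for CXCL11, which are 155 and 144 times when taken off the log2 scale. These factors come from the fold changes alone and were not set against monolayer levels. For CXCL9 the authors' deposited table gave 4.52, or 22.9 times, and for CXCR3 -0.24. The genes were chosen with these fold changes known, so the values are a description. The table gives no standard error.

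Calls required an adjusted p under 0.05 in the authors' DESeq2 comparison together with a log2 fold change of 1 or more in size. CXCL9, CXCL10 and CXCL11 passed as higher in spheroids and CXCR3 did not, which makes 3 of 4 members. Of all 18467 genes with a fold change, 20.8% passed this threshold, 11.5% as higher and 9.34% as lower in spheroids. With an adjusted p under 0.01 the count was 2 of 4, against 19.1% of all genes. Without a minimum fold change it was 3 of 4, against 50.4%, and with a minimum of 2 on the log2 scale 3 of 4, against 8.11%. Both members with a spheroid mean of 1 FPKM or more passed, against 22.6% of such genes. By fold change in the authors' deposited table, CXCL10 ranked 19th and CXCL11 20th of the 18467 genes, and CXCL9 182nd. The fold change of CXCL9 rests on spheroid values of at most 0.17 FPKM, and it was the ligand that missed an adjusted p of 0.01. The exact log2 fold change of CXCR3 in the authors' deposited table recurred in 12 other genes, and those of the 3 ligands in none.

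A likeness of pattern was measured as the Euclidean distance over 4 numbers, log2(FPKM + 1) in the 3 spheroid libraries and the authors' log2 fold change. The genes nearest to CXCL10 were CCL8, a monocyte chemoattractant gene, at a distance of 0.535, TREM1, an amplifying receptor gene of myeloid cells, at 1.39, and the gelatinase gene MMP9 at 1.94. CCL8 had levels of 104, 142 and 118 FPKM in replicates 1, 2 and 3, and the authors' deposited table placed it at 7.04. Nearest to CXCL11 were LCN2, the gene of the iron-siderophore-binding protein lipocalin 2, at 0.678, the stromelysin gene MMP10 at 0.741 and the chemokine gene CCL4 at 0.741. LCN2 was listed at 37.1, 43.1 and 49.2 FPKM, and the authors' deposited table gave it 6.73 as log2 fold change. None of these 6 genes was in the interferon lists used here. Those lists are short and chosen by hand, so this does not show whether interferon induces these genes.

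**Figure D3:**
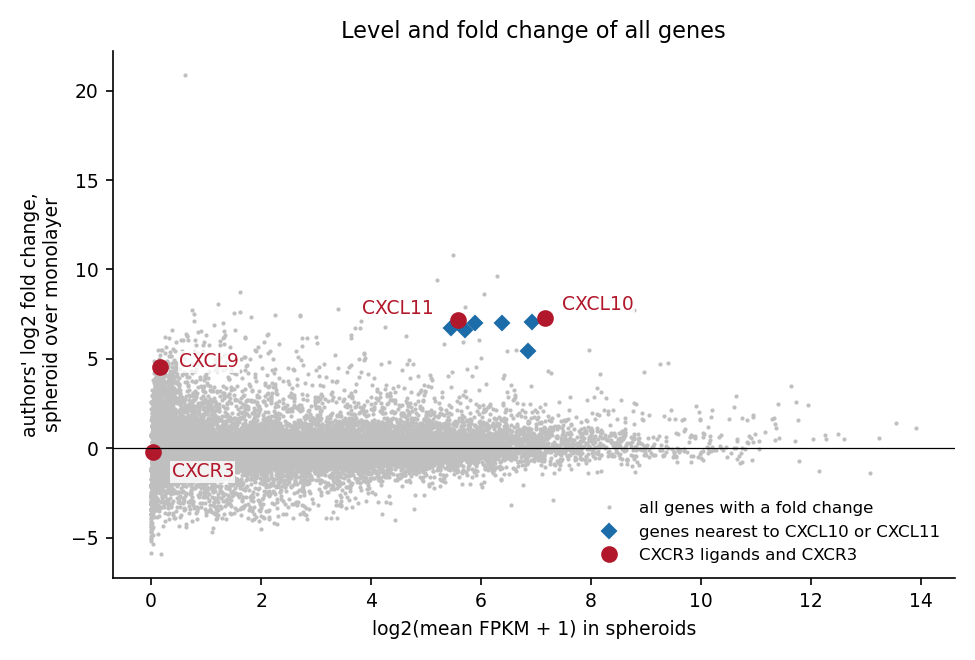
The authors' log2 fold change, spheroid over monolayer, against log2(mean spheroid FPKM + 1) for 18467 genes (grey), with the CXCR3 ligands and CXCR3 in red and the 6 genes nearest to CXCL10 or CXCL11 in blue. CXCL10 and CXCL11 combine log2 fold changes of 7.28 and 7.17 with high levels, CXCL9 has 4.52 at a level near 0, and CXCR3 lies near 0 on both axes.

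Interferon genes, whose products induce the ligands, were listed at low levels. Of 21 interferon ligand genes on the list, 16 were in the table, and their summed level was 2.82 to 3.74 FPKM over the libraries, the largest part from IFNE, at 1.43 to 2.58 FPKM. IFNG, encoding interferon gamma, was listed at 0 in the 3 libraries and had no fold change. IFNB1, encoding interferon beta, was listed at 0.11, 0.44 and 0.23 FPKM, and the interferon lambda gene IFNL1 at 0.37, 0.49 and 0.39 FPKM. By the authors' DESeq2 comparison none of the 11 tested interferon genes passed the threshold, against 20.8% of all tested genes, and 2 had an unadjusted p under 0.05. Only IFNE averaged 1 FPKM or more, so a share over genes of all levels is not a like yardstick. The lack of calls does not show a lack of change. The authors' deposited table had IFNB1 at 2.46 and IFNL1 at 3.94 on the log2 scale.

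The list of receptor and JAK-STAT genes holds carriers of the interferon signal to the nucleus and also inhibitors of that signal, such as SOCS1. Of its 16 genes, 7 passed as higher and none as lower, and the median log2 fold change was 0.90 by the authors' deposited table. The inhibitor gene SOCS1 had the largest value, 1.74 in the authors' deposited table. The shares over all tested genes were 11.5% higher and 9.34% lower. The transcription factor gene STAT2 averaged 100.3 ± 2.84 FPKM (SD, n = 3) and was higher at 1.22 in the authors' deposited table. Both interferon gamma receptor genes were higher, IFNGR1 at 1.12 and IFNGR2 at 1.51 in the authors' deposited table. IRF9, whose product partners STAT2 on the ISRE, did not pass at 0.68 in the authors' deposited table. Of 9 interferon regulatory factor genes, IRF1, IRF2 and IRF5 were higher, none was lower, and IRF1 had the largest of these values, 2.10 in the authors' deposited table.

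Of 14 NF-kB subunit and inhibitor genes, 9 passed as higher, 1 as lower and 4 did not pass, with a median of 1.34 by the authors' deposited table. Among all tested genes, 11.5% passed as higher and 9.34% as lower. The authors' deposited table placed RELA and NFKB1, whose products form the classical NF-kB dimer, at 1.63 and 1.53. The inhibitor genes NFKBIA, at 2.83, and TNFAIP3, at 2.72, had the largest values of this list in the authors' deposited table. Nucleic acid sensing genes had 8 of 12 tested members higher and none lower (median 1.34 by the authors' deposited table), among them IFIH1, encoding a sensor of double-stranded RNA, at 3.21 in the authors' deposited table.

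Other interferon-induced genes on the lists used were higher in most cases, against 11.5% of all tested genes. The lists were chosen with earlier results of these data known, so the counts were not tested. All 26 type I interferon-stimulated genes on the list were higher, at 1.36 to 5.93 in the authors' deposited table (median 2.21), so that the CXCL10 and CXCL11 values lay above the range of this list. Of 22 interferon-gamma-inducible genes, 18 passed as higher and none as lower, with a median of 2.02 by the authors' deposited table. UBD, encoding a ubiquitin-like protein, stood at 7.80 in the authors' deposited table, above CXCL10, and the guanylate-binding protein gene GBP4 at 4.52, close to CXCL9. UBD averaged 9.52 ± 1.50 FPKM and GBP4 11.1 ± 0.717 FPKM (SD, n = 3), so CXCL9 had the lowest level of these genes.

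The 11 tested CXCR3 axis partners are genes whose products bind, trim or signal alongside the ligands and CXCR3. The ligand genes CXCL13 and PF4, also counted among the CXC ligands above, are on this list. CXCL13, ARRB1 and DPP4, 3 of the 11, passed as higher and none as lower, with a median of 0.29 by the authors' deposited table. The largest value was that of CXCL13, 4.35 in the authors' deposited table. All tested genes together had 11.5% higher and 9.34% lower. ACKR3, encoding an atypical receptor that also binds CXCL11, had levels of 21.4, 19.5 and 21.1 FPKM in replicates 1, 2 and 3, against at most 0.06 FPKM for CXCR3. At 0.21 in the authors' deposited table it did not pass. DPP4, encoding a peptidase that trims the ligands, averaged 1.07 ± 0.0777 FPKM (SD, n = 3) and was higher in spheroids at 1.14 in the authors' deposited table. Of 17 other chemokine receptor genes 14 had a fold change. Of these, 7 passed as higher, against the same 11.5%, and none as lower (median 1.38 by the authors' deposited table). CXCR4, the receptor gene for the stromal chemokine CXCL12, led them at 5.02 in the authors' deposited table and 63.4 ± 8.73 FPKM (SD, n = 3). CXCR1, CCR8 and CCR9 were listed at 0 in the 3 libraries.

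**Figure D4:**
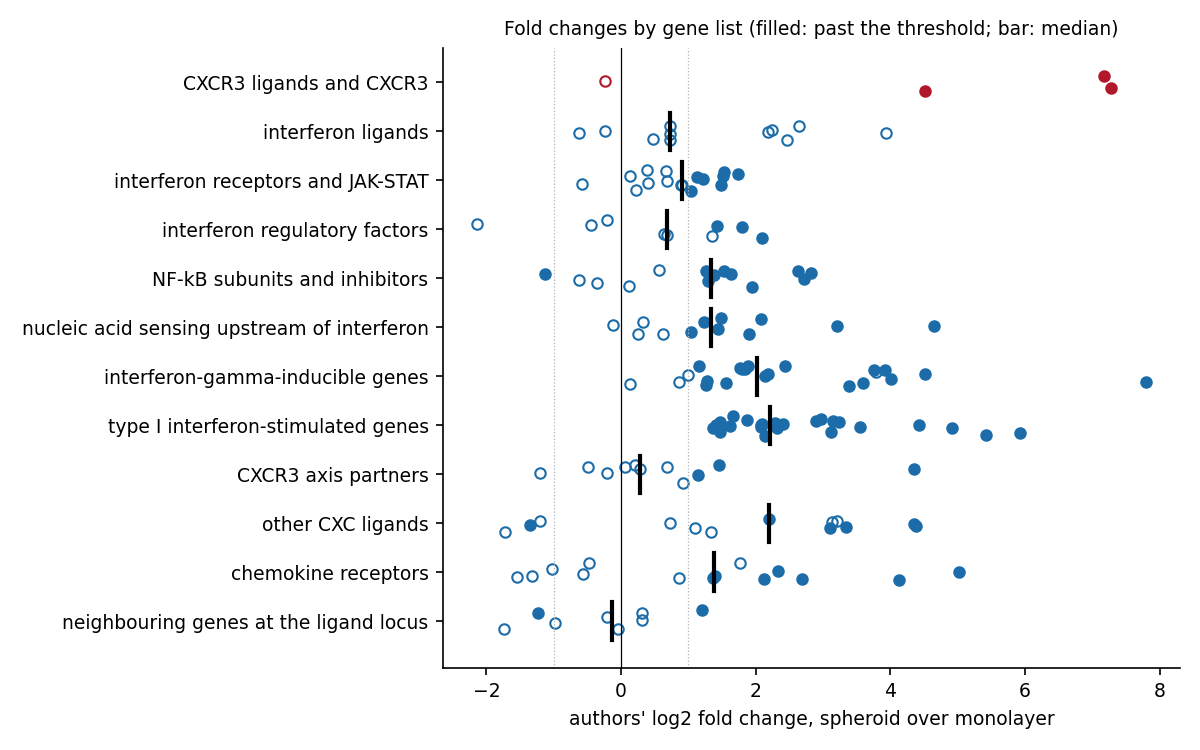
The authors' log2 fold changes, spheroid over monolayer, of the CXCR3 ligands and CXCR3 (red, top) and of 11 gene lists (blue); filled circles passed the threshold, open ones did not, black bars are list medians and dotted lines mark -1 and 1. CXCL10 and CXCL11 lie beyond every list member shown except UBD, and CXCR3 lies near 0.

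The genes around the ligand cluster had log2 fold changes of -1.74 to 1.20 in the authors' deposited table, below those of the ligands. Of 8 neighbours on chromosome 4, SCARB2, encoding a lysosomal membrane protein, was higher at 1.20, NAAA, encoding a lysosomal amidase, was lower at -1.23, and 6 did not pass (median -0.13 in the authors' deposited table). These counts are near the 11.5% higher and 9.34% lower among all tested genes. ART3 lies on the opposite strand, and its whole span overlaps those of CXCL10 and CXCL11 in the RefSeq annotation. Whether their exons overlap was not examined. Its levels were 0.05, 0.10 and 0.18 FPKM, and the authors' deposited table gave it a log2 fold change of -0.05. Since it is not stated whether counting used the strand, any reads in an exon overlap cannot be assigned to a strand for CXCL10 and CXCL11. CXCL9 does not overlap ART3.

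The ligands did not share 1 pattern over the libraries. Relative to its own mean of log2(FPKM + 1), CXCL10 deviated by -0.17, 0.07 and 0.10 in replicates 1, 2 and 3, and CXCL11 by 0.01, 0.18 and -0.19. Type I interferon-stimulated genes at 1 FPKM or more had median deviations of -0.10, 0.03 and 0.07, lowest in replicate 1 as for CXCL10. Interferon-gamma-inducible genes had -0.06, 0.03 and 0.07, and all genes at 1 FPKM or more had 0.01, -0.01 and 0.01. Replicate 1 was lowest in most of the other context lists too, so this is not particular to interferon-induced genes. NF-kB genes had -0.04, 0.01 and 0.05, and nucleic acid sensing genes -0.06, 0.06 and 0.02. For the axis partners, chemokine receptors and neighbours another replicate was lowest. With 3 libraries no correlation is given.

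Markers of other cell types that use or make these chemokines were checked in the spheroid libraries. Of the 14 T and natural killer cell markers measured, 10 were above 0 in every library, with a summed level of 50.1 to 57.3 FPKM, of which CD3D alone was 30.2 to 36.4 FPKM. After CD3D came CD4 at 5.52 to 7.40 FPKM, NCAM1 at 5.45 to 6.57 FPKM, GZMB at 3.70 to 5.99 FPKM and CD3E at 1.01 to 1.13 FPKM. CD3G, CD247, CD8A and GNLY were each at 0 in at least 1 library. Of 14 macrophage and dendritic cell markers 11 were above 0 in every library, with a summed level of 699 to 783 FPKM, of which the lysosomal gene CD68 made up 660 to 742 FPKM. The integrin gene ITGAX followed at 25.3 to 27.6 FPKM, CSF1R, a receptor gene of the macrophage lineage, at 5.98 to 6.72 FPKM, and the Fc receptor subunit gene FCER1G at 2.44 to 3.57 FPKM. PTPRC, the pan-leukocyte marker, was listed at 0, 0.01 and 0.06 FPKM and TYROBP at 0. Of 8 endothelial markers 7 were above 0 in every library. All 8 summed to 9.42 to 11.3 FPKM, of which TIE1 was 5.78 to 6.75 FPKM. By the authors' deposited table, 3 of 14 lymphocyte, 4 of 14 macrophage and 2 of 8 endothelial markers were higher, against 11.5% of all tested genes, and 1 endothelial marker, ESAM, was lower, against 9.34%. The lymphocyte markers that were higher were GZMB at 2.99, CD3E at 2.14 and CD3D at 1.88 in the authors' deposited table. Higher macrophage markers were FCGR3A at 6.07, CD163 at 2.58, CD68 at 2.16 and ITGAM at 1.86 in the authors' deposited table. Of these, FCGR3A, CD163 and ITGAM were at most 0.62 FPKM. The endothelial ones were PECAM1 at 4.68 and KDR at 2.71 in the authors' deposited table, both at most 0.74 FPKM. The part of such cells in the ligand levels was not tested, and in bulk RNA more cells of a type and more RNA per cell cannot be told apart. The labels give chondrocyte as the tissue. Of its markers, 2 of 16 reached a mean of 1 FPKM, SOX9 at 6.71 ± 0.0866 and COL11A2 at 2.11 ± 0.506 (SD, n = 3), and COL2A1, encoding the main cartilage collagen, was at most 0.03 FPKM. Of the 15 with a fold change in the authors' deposited table, 2 were higher, SOX5 and COL9A1, and 2 lower, ACAN and HAPLN1. These shares lie near the 11.5% higher and 9.34% lower among all tested genes. None of these 4 markers exceeded 0.77 FPKM in a spheroid library.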

How the data were processed

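RNA sequencing values came from 3 C28/I2 spheroid samples, grouped and numbered by their labels. FPKM values, to 2 decimals, were computed by the authors, per the file headers. The log2 fold changes, p-values and adjusted p-values come from the authors' DESeq2 comparison of the culture forms, per the file headers. The submitters' processing notes name Bowtie2 2.2.5, RSEM 1.2.12, DESeq2 1.4.5 and GRCh38.p13 without the step each served. Fold changes run spheroid over monolayer, as 356 of the 358 genes listed at 0 in every spheroid library had a negative value. The table also has 3 FPKM columns named as monolayer, per the file headers; they match no sample label given here and were not used, so the comparison was not refitted and the fold changes were not checked against monolayer levels. Read totals are unknown, so no counting interval is given; FPKM summed to 571705, 581522 and 623496 in replicates 1, 2 and 3.

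Levels are given per library and as mean with SD. A call needed an adjusted p under 0.05 and a log2 fold change of 1 or more in size. The members and the 15 context lists (227 entries) were chosen with earlier results of these data known, so no list was tested. Named genes are the members, up to 4 called members of each list with the largest fold changes in each direction, the interferon ligand and receptor genes, a short set fixed with them, and the 3 genes nearest to CXCL10 and CXCL11; genes with the letters GGGAAATTCC, markers, and genes given by their overlap or zero values were chosen after their values or sequences were seen. The count and distance steps were tested on simulated data. Promoters were matched by symbol for 4 of 4 members. Python 3.11.15, NumPy 2.4.6, pandas 2.3.3 and matplotlib 3.10.9 were used.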

Additional observations from a re-analysis of the deposited data

How the results depend on the processing

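Of 111 recomputed values, 93 stayed within the limits set for a like value. For a level the limit was its SD. Leaving out 1 of 3 libraries cannot move a mean that far, so those outcomes were fixed in advance and show no robustness. Leaving out each replicate gave means of 139 to 152 FPKM for CXCL10, 43.8 to 49.9 for CXCL11, 0.10 to 0.145 for CXCL9 and 0 to 0.03 for CXCR3, and the order of levels stayed the same. Median-ratio scaling and means on the log2 scale with pseudocounts of 1 or 0.1 moved no member's level by more than its SD. The count of members past the threshold was 2 at an adjusted p under 0.01 and 2 among genes averaging 1 FPKM or more, in both cases without CXCL9, and 3 otherwise. Centring the fold changes on their median of 0.04 changed no call among the members.

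The 18 counts that moved by over 1.5 times were all of context lists. Of all tested genes, 8.11% passed with a minimum absolute log2 fold change of 2, against 20.8% in the main setting. The counts went from 7 to 0 for interferon receptors and JAK-STAT genes, from 3 to 1 for interferon regulatory factors and from 10 to 3 for NF-kB genes. They went from 8 to 3 for nucleic acid sensing, from 18 to 10 for interferon-gamma-inducible genes and from 26 to 17 for type I interferon-stimulated genes. For CXCR3 axis partners the count went from 3 to 1 and for the neighbours from 2 to 0. With no minimum fold change 50.4% of all tested genes passed. The counts became 13 of 16 for receptors and JAK-STAT genes, 6 of 11 for axis partners and 5 of 8 for neighbours. For chondrocyte markers the count was 7 of 15, against 4 in the main setting. Among tested genes averaging 1 FPKM or more, 22.6% passed. Here the counts went from 7 to 4 for chemokine receptors, from 2 to 1 for neighbours and from 4 to 0 for chondrocyte markers. They went from 4 to 1 for macrophage markers and from 3 to 1 for endothelial markers. At an adjusted p under 0.01, passed by 19.1% of all tested genes, the chondrocyte markers had 2. Each of these rules changes which genes can pass by its own construction. No paired analysis was possible because the labels hold 1 group. The values of CXCL9 and CXCR3 are at most 0.17 FPKM and are given to 2 decimals, and with read totals unknown their counting error cannot be given.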
